A study of Mus musculus with 2 samples.

Results

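The 10 genes described here are transcribed in response to glucocorticoids in many tissues. They were chosen by name, with earlier results of these data known: Fkbp5, Tsc22d3, Per1, Klf9, Sgk1, Ddit4, Errfi1, Cebpd, Bcl6 and Pim3. They are 10 of the 32285 genes in the count tables, and each had UMIs (unique molecular identifiers, 1 per captured transcript molecule) in both libraries. The question was how their levels differed among the leukocytes of the adrenal gland, the organ in which glucocorticoids are made. CD45+ live cells had been sorted from digested adrenal glands of C57BL/6 mice aged 7 weeks and sequenced by droplet single-cell RNA sequencing. There was 1 library from female and 1 from male mice, with no treatment and no transgene. The number of animals in each library was not stated. Cell classes were compared with each other here, and the libraries were not, because each sex had 1 library.

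Glucocorticoids cross the cell membrane and bind the glucocorticoid receptor, which is held in the cytoplasm by heat shock proteins and their partners. The bound receptor enters the nucleus and pairs on DNA at a palindromic sequence, the glucocorticoid response element, from which it raises the transcription of nearby genes. In leukocytes the hormone is known for restraining inflammatory gene expression, for killing or relocating lymphocytes and for releasing neutrophils from the bone marrow. In the adrenal gland, leukocytes reside beside the cortical cells that secrete the hormone.

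The genes differ in what they do. Fkbp5 encodes a co-chaperone that lowers the receptor's affinity for hormone, and so takes part in a negative feedback loop. Tsc22d3 encodes GILZ, a leucine zipper protein that binds inflammatory transcription factors. Per1 encodes a repressor of the circadian clock. Klf9, Cebpd and Bcl6 encode transcription factors. Sgk1 and Pim3 encode serine/threonine kinases. Ddit4 encodes an inhibitor of mTOR signalling, and Errfi1 an inhibitor of epidermal growth factor receptor signalling.

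The female library held 16218309 UMIs over 3963 barcodes and the male library 9512670 UMIs over 2685 barcodes. After filtering, 3691 female and 2446 male cells remained, with a median of 3479 and 2967.5 UMIs. Of these, 3226 and 2176 cells could be placed in a class by canonical marker genes, and a class is called here by the cell type its markers stand for, which means cells resembling that type. In all, 10 leukocyte classes had at least 20 cells in each library: B cells (513 female and 269 male cells), T cells (766 and 426), natural killer (NK) cells (632 and 259), group 2 innate lymphoid cells (ILC2, 31 and 25), macrophages (803 and 864), classical monocytes (141 and 60), nonclassical monocytes (82 and 73), type 1 dendritic cells (32 and 26), type 2 dendritic cells (96 and 65) and neutrophils (48 and 53). In both libraries the summed markers of each of the 10 classes were highest in that class. Cells had been placed by these same markers, so this follows from the placing and is no separate check of the classes. Ptprc, which encodes CD45, ranged from 232 to 2249 CPM, the UMIs of a gene scaled to the summed UMIs of its class in the usual way, over these classes. It was at 104 and 207 CPM in 38 female and 41 male cells with endothelial markers, which were therefore left out of the order of leukocytes. The 2 libraries shared 2 barcodes.

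The DNA next to the annotated start sites was read first, since the receptor acts through a known sequence. RefSeq windows of 300 bases on GRCm38.p6, from 250 bases before a start to 50 bases after it, covered 19 starts of 9 of the genes; Cebpd is named only. The palindrome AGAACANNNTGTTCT was found in 3 of 32851 windows of all genes (0.00913%), and 1 of these belonged to Sgk1. Its single arm AGAACA, or TGTTCT on the other strand, was found in 6233 windows (19.0%) and in 5 of the 19 windows of these genes. Arms inside the palindrome are included in that count. The windows shown were chosen because they hold the matches of 3 genes: the Sgk1 window with the palindrome (chr10:21993640-21993939, plus strand), the Tsc22d3 window with an arm (chrX:140600473-140600772, minus strand) and the Bcl6 window with an arm (chr16:23981234-23981533, minus strand). Each is written 5′ to 3′ along the gene, and capitals mark the matched letters.
Sgk1: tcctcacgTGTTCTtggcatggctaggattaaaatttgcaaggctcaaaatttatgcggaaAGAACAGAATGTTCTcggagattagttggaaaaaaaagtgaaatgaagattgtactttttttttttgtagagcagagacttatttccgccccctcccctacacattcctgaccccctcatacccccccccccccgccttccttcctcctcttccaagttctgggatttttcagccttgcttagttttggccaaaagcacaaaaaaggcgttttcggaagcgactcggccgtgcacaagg
Tsc22d3: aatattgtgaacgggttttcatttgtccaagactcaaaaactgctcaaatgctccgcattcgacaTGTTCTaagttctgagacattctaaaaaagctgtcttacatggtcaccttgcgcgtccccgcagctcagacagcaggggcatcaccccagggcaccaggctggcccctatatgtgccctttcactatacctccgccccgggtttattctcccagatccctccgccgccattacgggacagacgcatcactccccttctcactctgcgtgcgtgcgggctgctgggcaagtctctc
Bcl6: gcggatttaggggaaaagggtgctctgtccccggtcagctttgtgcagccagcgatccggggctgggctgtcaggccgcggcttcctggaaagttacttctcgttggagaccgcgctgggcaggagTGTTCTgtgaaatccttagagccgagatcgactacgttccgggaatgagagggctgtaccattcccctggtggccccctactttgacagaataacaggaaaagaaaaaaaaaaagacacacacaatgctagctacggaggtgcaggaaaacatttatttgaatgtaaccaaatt

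In the Sgk1 window the palindrome read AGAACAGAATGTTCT, at chr10:21993701-21993715, and began 189 bases before the start. A further arm lay upstream of it in the same window, and 2 of the other 5 Sgk1 windows held 1 arm each. A match is a run of letters and not a measured binding site, and a window without one may have sites outside it. No binding was measured in these data.

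Fkbp5 (ENSMUSG00000024222, chr17:28399094-28517527 on GRCm38, minus strand) overlaps other annotated genes on both strands in GENCODE M21, so reads in those stretches are uncertain. Among classes with at least 10 UMIs in each library it was highest in macrophages and NK cells. Its level was 143 CPM (95% Poisson interval 130 to 157) in female and 57.8 CPM (49.2 to 67.4) in male macrophages. In NK cells it was 109 CPM (97.7 to 122) and 61.3 CPM (48.6 to 76.1). T cells came below them in both libraries, at 62.6 CPM (54.5 to 71.6) and 34.7 CPM (26.5 to 44.7). B cells had 17 and 7 UMIs, or 9.90 CPM (5.77 to 15.9) and 9.59 CPM (3.85 to 19.8), and the intervals of T, NK cells and macrophages lay above those of B cells in both libraries. The monocytes were between 9.99 CPM (2 UMIs, male nonclassical cells) and 72.0 CPM. Type 1 dendritic cells were at 15.5 and 31.0 CPM (3 and 5 UMIs) and type 2 dendritic cells at 40.3 and 8.93 CPM (18 and 3 UMIs). ILC2 (4 and 7 UMIs), neutrophils (3 and 2 UMIs) and type 1 dendritic cells held too few UMIs to be placed in the order. The same holds for male type 2 dendritic cells and male nonclassical monocytes. Over the 45 pairs of classes, 8 had intervals apart in the same direction in both libraries, so most neighbours in the order did not differ beyond counting error. All such intervals, for levels and shares, cover counting error only.

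The share of cells with an Fkbp5 UMI was compared after drawing 1000 UMIs from each cell, because a deeper cell shows more genes. At that depth 11.5% of female and 4.93% of male macrophages, 8.84% and 5.47% of NK cells, 3.29% and 2.16% of T cells and 1.01% and 1.57% of B cells had a UMI. Without the draw the shares were 30.3% and 14.2% in macrophages, 31.0% and 24.7% in NK cells, 19.1% and 10.1% in T cells and 2.92% and 2.60% in B cells. Median depth was 3335 and 2325 UMIs in macrophages, 3939.5 and 4756 in NK cells, 3880 and 3757 in T cells and 2208 and 1779 in B cells. B cells had the lowest shares in both libraries. No class is known to lack this gene, and the part of free RNA in the droplets was not tested.

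Tsc22d3 (ENSMUSG00000031431, chrX:140539528-140600659, minus strand) had the most UMIs of the 10 genes over these classes (5926) and another order than Fkbp5. Neutrophils were highest, at 1614 CPM (1353 to 1910) in the female and 1413 CPM (1190 to 1665) in the male library. Nonclassical monocytes followed at 694 and 480 CPM, then B cells at 521 CPM (487 to 556) and 475 CPM (427 to 528), classical monocytes at 604 and 379 CPM and ILC2 at 567 and 340 CPM. Macrophages were at 367 and 212 CPM and type 2 dendritic cells at 354 and 241 CPM. T cells (208 and 170 CPM), NK cells (180 and 118 CPM) and type 1 dendritic cells (134 and 130 CPM) were lowest in both libraries. Of the 45 pairs of classes, 31 had intervals apart in both libraries, more than for any other of the 10 genes, and among neighbours in the order neutrophils stood apart from nonclassical monocytes and macrophages from T cells. At equal depth 65.9% of female and 69.8% of male neutrophils had a Tsc22d3 UMI, against 40.8% and 38.4% of B cells, 27.6% and 20.0% of macrophages, 17.1% and 15.1% of T cells and 16.1% and 10.2% of NK cells. Thus B cells had the lowest Fkbp5 level of the larger classes and a higher Tsc22d3 level than T cells, NK cells and macrophages.

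**Figure D1:**
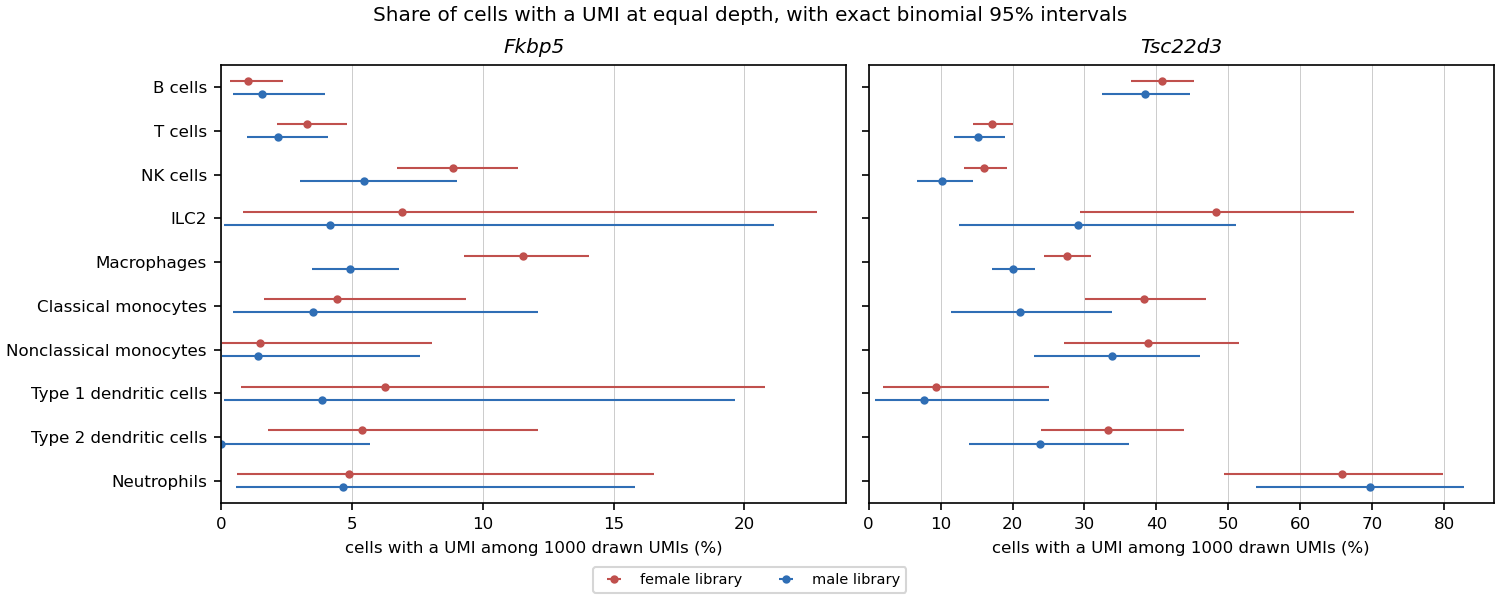
Share of cells with a UMI of Fkbp5 (left) and Tsc22d3 (right) among 1000 UMIs drawn per cell, in percent, for each leukocyte class (rows) in the female and the male library, with exact binomial 95% intervals as bars. For Fkbp5 macrophages and NK cells lie above B cells (1.01% and 1.57%), and for Tsc22d3 neutrophils lie highest (65.9% and 69.8%).

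Per1 (ENSMUSG00000020893, chr11:69095217-69109960, plus strand) was low throughout, with 294 UMIs over the 10 classes. Neutrophils had 5 and 8 UMIs, or 59.8 CPM (19.4 to 139) and 79.6 CPM (34.4 to 157). Macrophages were at 30.1 and 15.7 CPM, classical monocytes at 25.6 and 21.0 CPM, B cells at 10.5 and 13.7 CPM, NK cells at 9.92 and 12.1 CPM and T cells at 5.58 and 8.68 CPM. Intervals were apart in both libraries for 4 of the 45 pairs.

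The 3 transcription factors had different orders. Cebpd (ENSMUSG00000071637, chr16:15887286-15891031, plus strand) was found mainly in myeloid cells. It stood at 633 CPM (474 to 829) and 567 CPM (430 to 735) in neutrophils, 120 CPM (91.9 to 154) and 160 CPM (113 to 219) in classical monocytes and 45.4 and 46.7 CPM in macrophages. T cells had 4 and 2 UMIs (1.18 and 1.16 CPM), B cells 2.33 and 4.11 CPM and NK cells 4.10 and 5.29 CPM. ILC2 had none, which allows up to 37.0 and 36.4 CPM (3 counts of the total). Neutrophils were apart from all other classes in both libraries, and at equal depth 51.2% and 39.5% of them had a Cebpd UMI. Cebpd lies in a stretch where the gene Spidr is annotated on the other strand. Of the other genes, Klf9 overlaps Mir1192 on its own strand, and Errfi1 and Bcl6 overlap 1700045H11Rik and Gm37419 on the other strand.

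Bcl6 (ENSMUSG00000022508, chr16:23965052-23988852, minus strand), a repressor known from germinal centre B cells and follicular helper T cells, was highest in nonclassical monocytes and neutrophils and not in lymphocytes. Nonclassical monocytes were at 97.7 CPM (58.8 to 152) in the female library and at 300 CPM (229 to 386) in the male library, where 60 UMIs came from 34 of 73 cells. Neutrophils were at 131 and 119 CPM and classical monocytes at 82.7 and 33.7 CPM. Type 1 dendritic cells had 36.2 and 74.4 CPM and type 2 dendritic cells 31.3 and 41.7 CPM. B cells stood at 24.5 CPM (17.6 to 33.1) and 23.3 CPM (13.6 to 37.3), above T cells at 5.00 and 6.94 CPM. The T cell and B cell intervals did not overlap in either library.

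Klf9 (ENSMUSG00000033863, chr19:23141226-23168134, plus strand) was at 71.4 CPM (62.3 to 81.4) in female and 20.0 CPM (15.1 to 25.9) in male macrophages. In monocytes it ranged from 37.9 to 55.0 CPM over both subsets and libraries. NK cells had 34.2 and 23.4 CPM and T cells 26.2 and 15.6 CPM, above B cells with 3.50 and 6.85 CPM. No Klf9 UMI was found among the 83669 female and 100509 male UMIs of neutrophils, which allows up to 35.9 and 29.8 CPM. Only 2 of the 45 pairs of classes were apart in both libraries. Outside the leukocytes, endothelial cells had 217 and 130 CPM.

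The kinase gene Sgk1 (ENSMUSG00000019970, chr10:21882184-21999903, plus strand) was spread over the myeloid classes. It stood at 118 and 89.9 CPM in nonclassical monocytes, 83.7 and 99.5 CPM in neutrophils, 82.7 and 54.7 CPM in classical monocytes, 72.3 and 80.5 CPM in type 1 dendritic cells and 64.0 and 42.1 CPM in macrophages. Lymphocytes were lower, with 31.4 and 21.4 CPM in T cells, 14.4 and 18.2 CPM in NK cells and 10.5 and 5.48 CPM in B cells. ILC2 were at 123 CPM (59.1 to 227) and 48.5 CPM (13.2 to 124), from 10 and 4 UMIs. Among T cells, those with Cd8a or Cd8b1 had 60.4 CPM (47.1 to 76.3) and 25.3 CPM (13.8 to 42.5), and those with Cd4 29.1 CPM (14.5 to 52.0) and 11.1 CPM (1.35 to 40.2). The CD8 cells had the higher value in both libraries, with overlapping intervals. Endothelial cells stood above every leukocyte class, at 499 CPM (374 to 653) and 519 CPM (396 to 668).

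The other kinase gene, Pim3 (ENSMUSG00000035828, chr15:88862186-88865726, plus strand), had 232 UMIs in the 10 classes. NK cells were highest in both libraries among the classes with at least 10 UMIs in each, at 19.8 CPM (15.1 to 25.6) and 22.7 CPM (15.3 to 32.4). T cells had 11.8 and 7.52 CPM, B cells 8.16 and 15.1 CPM and macrophages, from 25 and 20 UMIs, a lower level than NK cells. NK cells and macrophages formed the 1 pair of 45 whose intervals were apart in both libraries.

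The inhibitor gene Ddit4 (ENSMUSG00000020108, chr10:59949669-59951834, minus strand) was highest in nonclassical monocytes, at 211 CPM (151 to 286) and 130 CPM (84.9 to 190). Macrophages had 155 CPM (141 to 169) and 62.4 CPM (53.5 to 72.4), NK cells 92.7 and 52.9 CPM and T cells 79.1 and 56.1 CPM. B cells were at 20.4 CPM (14.2 to 28.4) and 19.2 CPM (10.5 to 32.2), below T cells, NK cells, macrophages and nonclassical monocytes in both libraries. Errfi1 (ENSMUSG00000028967, chr4:150853919-150868892, plus strand), with 231 UMIs, stood at 19.5 CPM (14.9 to 25.1) and 22.5 CPM (17.3 to 28.8) in macrophages. It was lower in T cells (7.05 and 5.79 CPM) and B cells (1.75 and 1.37 CPM), and it had no UMI in ILC2, neutrophils and type 1 dendritic cells. Those zeros allow up to 37.0 and 36.4, 35.9 and 29.8, and 15.5 and 18.6 CPM (3 counts of the total), so they do not place ILC2 and neutrophils below macrophages.

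**Figure D2:**
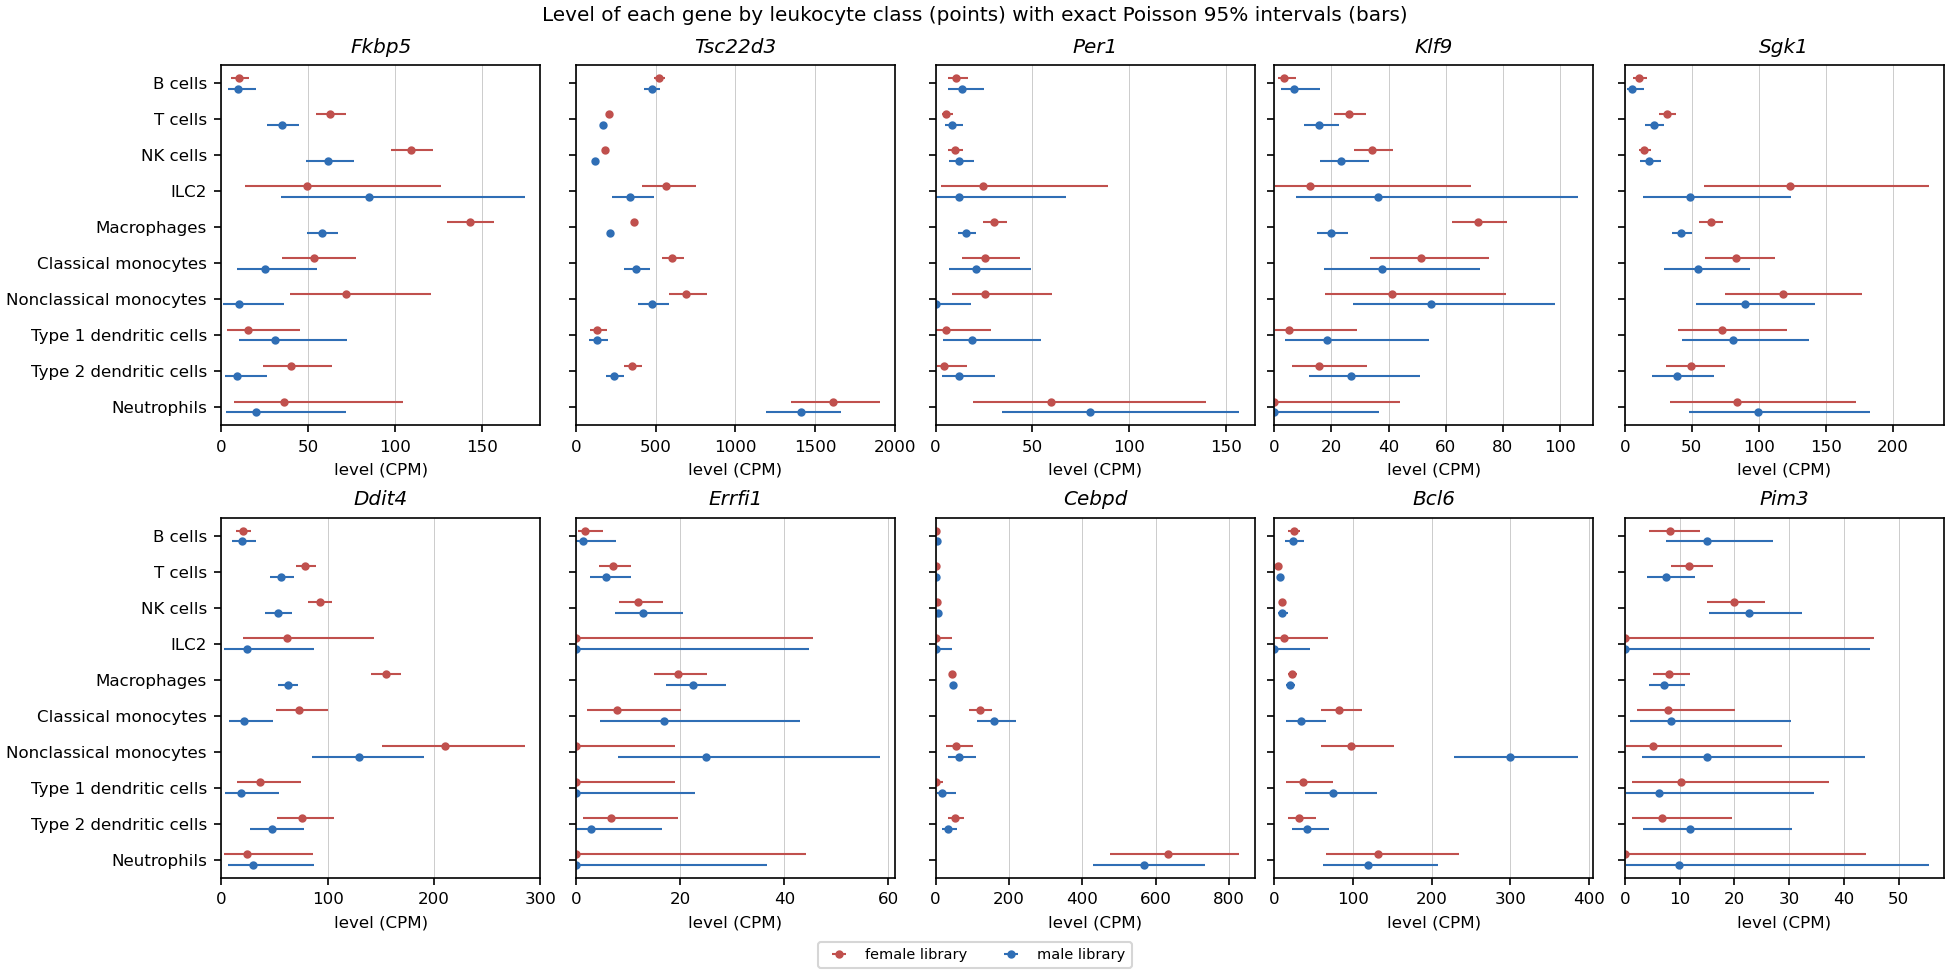
Level of each of the 10 genes in CPM (horizontal axis, a scale of its own in each panel) by leukocyte class (rows), with 1 point for the female and 1 for the male library and exact Poisson 95% intervals as bars. Tsc22d3 and Cebpd peak in neutrophils (1614 and 1413 CPM, and 633 and 567 CPM), Bcl6 in nonclassical monocytes of the male library (300 CPM), and Fkbp5 in macrophages of the female library (143 CPM).

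Differences between classes were tested with edgeR on UMIs summed per library and class, with the library as a block and Benjamini-Hochberg adjustment over all genes tested. Each class then has 2 sums, and the block removes the general difference between the 2 libraries, whose animals differ in sex. The p-values rest only on how far a class difference varied between these 2 libraries, with the spread estimated jointly over genes. They do not measure a spread among animals. Of the 79 tests of these genes in 9 comparisons, 35 had an adjusted p under 0.05. Over all genes, 0.48% to 31.5% were higher and 0.366% to 27.3% lower, depending on the comparison. All 35 differences had the same direction in both libraries, which is no separate support, since the fit that passed them used both. For 27 the interval of the ratio excluded 1 in each library. The 35 include Klf9 in neutrophils, where it had no UMI. Log2 fold changes are given ± SE (n = 2 libraries), as the first class minus the second. The SE was taken as the size of the fold change divided by the square root of the F statistic. It thus rests on a spread shared over genes and is not a spread over the 2 libraries alone. Counts over the 10 genes are given beside the percentage of all tested genes that passed in that direction. Comparisons that share a class share its cells.

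T cells were compared with B cells. In all, 4 genes were higher in T cells and 3 lower, among the 8 with enough counts to be tested, against 15.7% higher and 16.3% lower of 9063 genes. The higher ones were Fkbp5 (2.19 ± 0.28, adjusted p = 2.24e-06), Klf9 (2.05 ± 0.41, adjusted p = 0.000465), Ddit4 (1.58 ± 0.22, adjusted p = 7.7e-06) and Sgk1 (1.41 ± 0.31, adjusted p = 0.000963). For Klf9 the ratio of T cells to B cells was 7.48 in the female library and 2.28 (0.866 to 7.59) in the male library, where the interval included 1. For Fkbp5 the ratio of T cells to B cells was 6.32 (3.85 to 11.1) in the female and 3.62 (1.65 to 9.39) in the male library. The lower ones were Bcl6 (-2.32 ± 0.33, adjusted p = 9.73e-06), Tsc22d3 (-1.65 ± 0.10, adjusted p = 3.22e-11) and Per1 (-1.05 ± 0.40, adjusted p = 0.0499). The genes therefore split by direction between these lymphocytes. The call of Per1 was at the threshold and was lost under 9 alternatives (adjusted p from 0.0516 to 0.707). With DESeq2 4 of the 7 calls were kept (Fkbp5, Ddit4, Bcl6 and Tsc22d3). Pim3 did not pass (adjusted p = 0.668), and Errfi1 and Cebpd had too few UMIs.

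NK cells were compared with T cells, and 2 of 9 tested genes were higher and 2 lower, against 10.5% and 12.2% of 9619 genes. Pim3 (0.86 ± 0.28, adjusted p = 0.0122) and Fkbp5 (0.65 ± 0.14, adjusted p = 3.18e-05) were higher in NK cells. Sgk1 (-0.99 ± 0.23, adjusted p = 0.00022) and Tsc22d3 (-0.49 ± 0.10, adjusted p = 3.08e-05) were lower. The Fkbp5 ratio was 1.75 in the female and 1.76 in the male library, and both intervals excluded 1. The Pim3 ratio was 1.69 (1.11 to 2.59) in the female and 3.02 (1.53 to 6.30) in the male library. The Sgk1 ratio was 0.457 (0.312 to 0.658) and 0.848 (0.485 to 1.46), so this difference came mostly from the female library. With a mitochondrial ceiling of 1.2% of UMIs, which left 323 female and 354 male cells, the Tsc22d3 difference was 0.11 (adjusted p = 0.895). With DESeq2 none of the 4 calls was kept (adjusted p from 0.173 to 0.790, with 2 genes at an unadjusted p under 0.05), and without the library block those of Fkbp5 (adjusted p = 0.0904) and Tsc22d3 (adjusted p = 0.0601) were lost.

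In ILC2 against T cells, 1 of 6 tested genes was higher and none lower, against 2.36% and 3.08% of 7933 genes, and 2 of the 6 had an unadjusted p under 0.05. Tsc22d3 was higher (0.95 ± 0.22, adjusted p = 0.0278), at ratios of 2.73 (1.98 to 3.68) and 2.00 (1.31 to 2.96). This call rests on 31 and 25 ILC2 and was lost under 5 alternatives, with adjusted p from 0.0545 to 0.297. Sgk1 had a difference of 1.39 ± 0.53 (adjusted p = 0.215).

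Macrophages differed from T cells in most of these genes. All 10 were tested, 9 were higher in macrophages and none was lower, against 31.5% higher and 27.3% lower of 10675 genes. Cebpd had the greatest difference (5.28 ± 0.35, adjusted p = 1.96e-48), but its size rests on the 4 and 2 UMIs of T cells. Cebpd entered the test only through the 142 and 131 UMIs of macrophages, so it adds no support to the count of 9. Its ratio was 38.7 (14.77 to 143.8) in the female and 40.4 (10.96 to 337) in the male library, so the direction is clearer than the size. Bcl6 (1.95 ± 0.31, adjusted p = 1.58e-09), Per1 (1.87 ± 0.29, adjusted p = 9.6e-10) and Errfi1 (1.69 ± 0.30, adjusted p = 8.71e-08) followed. Klf9 (1.21 ± 0.19, adjusted p = 1.12e-09), Fkbp5 (1.09 ± 0.14, adjusted p = 7.49e-14) and Sgk1 (1.05 ± 0.17, adjusted p = 5.13e-09) came next. Ddit4 (0.72 ± 0.13, adjusted p = 2.08e-07) and Tsc22d3 (0.63 ± 0.11, adjusted p = 2.6e-08) had smaller differences. The male ratios of Klf9 (1.28, 0.794 to 2.11) and Ddit4 (1.11, 0.863 to 1.44) had intervals that included 1, while the female intervals (2.13 to 3.53 and 1.68 to 2.28) excluded it. The Per1 ratio was 5.39 in the female and 1.81 (0.987 to 3.50) in the male library. Pim3 did not pass (adjusted p = 0.448). The count of 9 fell to 5 with DESeq2 (Cebpd, Fkbp5, Bcl6, Tsc22d3 and Sgk1) and to 1 at the 1.2% ceiling (Fkbp5). Summed markers of adrenal endocrine cells, such as Star and Cyp11a1, were at 281 and 260 CPM in macrophages and 23.5 and 25.5 CPM in T cells, and the part of endocrine RNA in these differences was not tested.

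Monocytes, classical and nonclassical together, were compared with macrophages. Of the 10 genes 4 were higher in monocytes and 1 lower, against 17.1% and 15.8% of 9243 genes. Bcl6 (2.46 ± 0.23, adjusted p = 2.54e-25), Cebpd (1.27 ± 0.20, adjusted p = 4.82e-09), Tsc22d3 (0.91 ± 0.12, adjusted p = 1.6e-12) and Sgk1 (0.65 ± 0.21, adjusted p = 0.00978) were higher. Fkbp5 was lower (-1.34 ± 0.23, adjusted p = 7.2e-08), with 58.4 CPM in female and 18.3 CPM in male monocytes against 143 and 57.8 CPM in macrophages. The Bcl6 ratio was 3.82 in the female and 7.77 in the male library, where 60 of the 68 monocyte UMIs came from nonclassical cells. Male classical monocytes, at 33.7 CPM (14.5 to 66.3), overlapped male macrophages, at 20.0 CPM (15.1 to 25.9). Without the library block 3 of the 5 calls were kept, and that of Fkbp5 was lost (adjusted p = 0.0713). Endocrine markers summed to 184 and 267 CPM in monocytes, and the median mitochondrial share was 1.81% and 1.54% of UMIs in monocytes against 3.10% and 3.07% in macrophages. The part of either in the result was not tested. Fkbp5 and Tsc22d3 thus differed in opposite directions, as they did between T cells and B cells and between NK cells and T cells.

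Neutrophils were compared with monocytes, where 3 of 7 tested genes were higher and 1 lower, against 16.9% and 15.3% of 3981 genes. Cebpd (2.66 ± 0.29, adjusted p = 1.08e-05), Per1 (2.09 ± 0.64, adjusted p = 0.0232) and Tsc22d3 (1.74 ± 0.21, adjusted p = 2.54e-05) were higher in neutrophils. The Tsc22d3 ratio was 2.56 (2.10 to 3.12) in the female and 3.33 (2.65 to 4.16) in the male library. Klf9 was the 1 gene called lower (adjusted p = 0.0204), but it entered the test only through monocytes and adds no support to the count. With DESeq2 the calls of Cebpd and Tsc22d3 were kept. As neutrophils had no Klf9 UMI and the gene was tested only through its 34 and 20 UMIs in monocytes, this call is no measure of size. The upper limit of the ratio of neutrophils to monocytes was 0.962 in the female and 0.882 in the male library, close to 1. Immediate early and heat shock genes, which digestion of a tissue can raise, moved with this comparison. Their summed level over 13 genes was 17617 and 21540 CPM in neutrophils and lay between 1439 and 5468 CPM in the other 9 classes, and 8 of 11 tested members were higher and 2 lower in neutrophils than in monocytes. The 6 neutrophil marker genes alone summed to 166776 and 104647 CPM and so took up a share of the total against which every CPM of this class is set. The part of either in the results was not tested. The Per1 ratio was 2.33 (0.677 to 6.52) and 6.97 (2.01 to 27.1), from 5 and 8 UMIs in neutrophils.

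Type 2 dendritic cells were compared with macrophages. Fkbp5 was lower (-1.84 ± 0.29, adjusted p = 0.000559), at ratios of 0.282 (0.165 to 0.450) and 0.155 (0.0315 to 0.460). It was the 1 gene of the 10 to pass, and none was higher, against 9.93% higher and 9.6% lower of 9087 genes by edgeR. An unadjusted p under 0.05 was found for 5, and DESeq2 also passed 1. The Fkbp5 call was lost without the library block (adjusted p = 0.0696). The other 4 missed the adjusted threshold, with differences of -1.84 ± 0.62 for Errfi1 (adjusted p = 0.0587), -0.64 ± 0.24 for Ddit4 (adjusted p = 0.0837), 0.92 ± 0.35 for Bcl6 (adjusted p = 0.0965) and -1.42 ± 0.61 for Per1 (adjusted p = 0.133). Summed macrophage markers were 376 and 429 CPM in the dendritic cells against 16765 and 16411 CPM in macrophages. The dendritic cells held Cd163 at 64.9 and 128 CPM and 4514 and 6778 CPM of the markers of Aldh1a2-high macrophages, and their median mitochondrial share was 1.61% and 1.07% of UMIs. The part of either in these values was not tested.

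**Figure D3:**
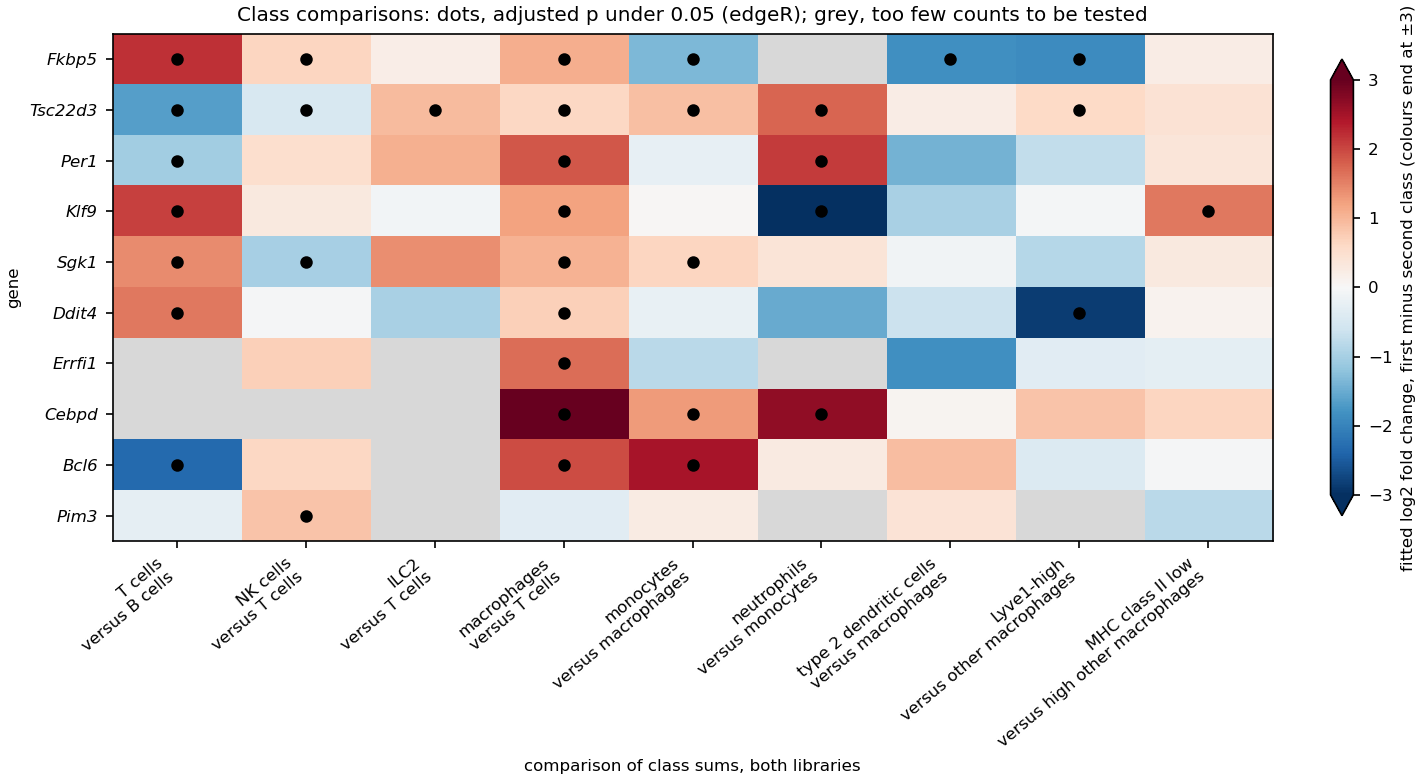
Fitted log2 fold change (colour, first class minus second, with colours ending at ±3) of the 10 genes (rows) in 9 comparisons of class sums over both libraries (columns). Black dots mark an adjusted p under 0.05 by edgeR, and grey marks genes with too few counts. The column of macrophages versus T cells holds 9 dots, and the fitted value of Klf9 in neutrophils, where it had no UMI, is no measure of size.

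Macrophage subsets were compared next, in 2 comparisons. Lyve1-high macrophages (62 female and 122 male cells) were called by Lyve1, Folr2, Fcna, Cd209f, Timd4 and Cbr2. They were compared with the other macrophages (692 and 666 cells), which had under 2 markers of this set and under 2 of the Aldh1a2-high set. Of 9 tested genes 1 was higher and 2 lower, against 9.1% and 8.72% of 8638 genes. Fkbp5 was lower in Lyve1-high cells (-1.88 ± 0.37, adjusted p = 0.000189), with 47.4 and 20.4 CPM against 156 and 67.6 CPM. The Fkbp5 ratios were 0.303 (0.130 to 0.603) and 0.302 (0.109 to 0.672). Ddit4 was lower as well (-2.84 ± 0.46, adjusted p = 1.05e-05), with 8 UMIs (47.4 CPM) and 0 UMIs (up to 10.2 CPM by 3 counts) against 170 and 76.2 CPM. Tsc22d3 went the other way (0.59 ± 0.21, adjusted p = 0.0455), with 438 and 415 CPM against 365 and 183 CPM. Its ratio in the female library had an interval that included 1 (0.936 to 1.52), and that of the male library was 2.27 (1.84 to 2.78). The difference was 0.27 without the male and 1.18 without the female library, and the call was lost under 6 alternatives (adjusted p from 0.0541 to 0.387). Aldh1a2-high macrophages (49 and 76 cells), which entered no test, had Fkbp5 at 27.8 and 20.7 CPM and Ddit4 at 22.2 and 20.7 CPM. Both subsets lay below the other macrophages for both genes in each library. Markers of classical monocytes summed to 1428 and 2419 CPM in Lyve1-high cells and 260 and 42.4 CPM in other macrophages, and the median mitochondrial share was 5.92% and 6.10% of UMIs against 3.02% and 2.88%. Median depth was 2096.5 and 1994.5 UMIs in Lyve1-high cells against 3578 and 2458.5 in other macrophages. The part of each of these in the result was not tested. With DESeq2 1 of the 3 calls, that of Fkbp5, was kept.

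The other macrophages were divided by MHC class II, the molecules that present antigen to CD4 T cells. Cells with at most 1% of UMIs from 4 MHC class II genes were called low, and 21 female and 10 male macrophages lay near this limit. There were 173 female and 34 male low cells, with a median of 3815 and 1447.5 UMIs, and 519 and 632 high cells. Klf9 was higher in low cells (1.59 ± 0.33, adjusted p = 0.000248), at 129 CPM (104 to 157) and 117 CPM (55.9 to 214) against 53.0 CPM (43.5 to 64.0) and 14.1 CPM (9.49 to 20.1). The ratio was 2.43 (1.82 to 3.23) in the female and 8.28 (3.61 to 17.4) in the male library, the second from 10 UMIs in 5 low cells. It was the 1 gene of 10 that was higher, and none was lower, against 0.48% and 0.366% of 8747 genes by edgeR, with no other unadjusted p under 0.05. At equal depth 26 of 161 female and 3 of 20 male low cells had a Klf9 UMI, against 3.38% and 1.16% of high cells. The call was lost without the library block (adjusted p = 0.193) and with DESeq2 (adjusted p = 0.320), with differences of 1.86 and 1.89. It was 1.28 without the male and 3.10 without the female library. The direction of Fkbp5 was not shared by the libraries, with 207 CPM (176 to 243) against 138 CPM (122 to 155) in the female and 35.0 CPM (7.21 to 102, from 3 UMIs) against 68.9 CPM (58.2 to 81.0) in the male library. Endocrine markers summed to 270 and 210 CPM in low and 278 and 247 CPM in high cells. Markers of classical monocytes summed to 694 and 117 CPM in low and 103 and 39.4 CPM in high cells, and their part in the result was not tested.

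**Figure D4:**
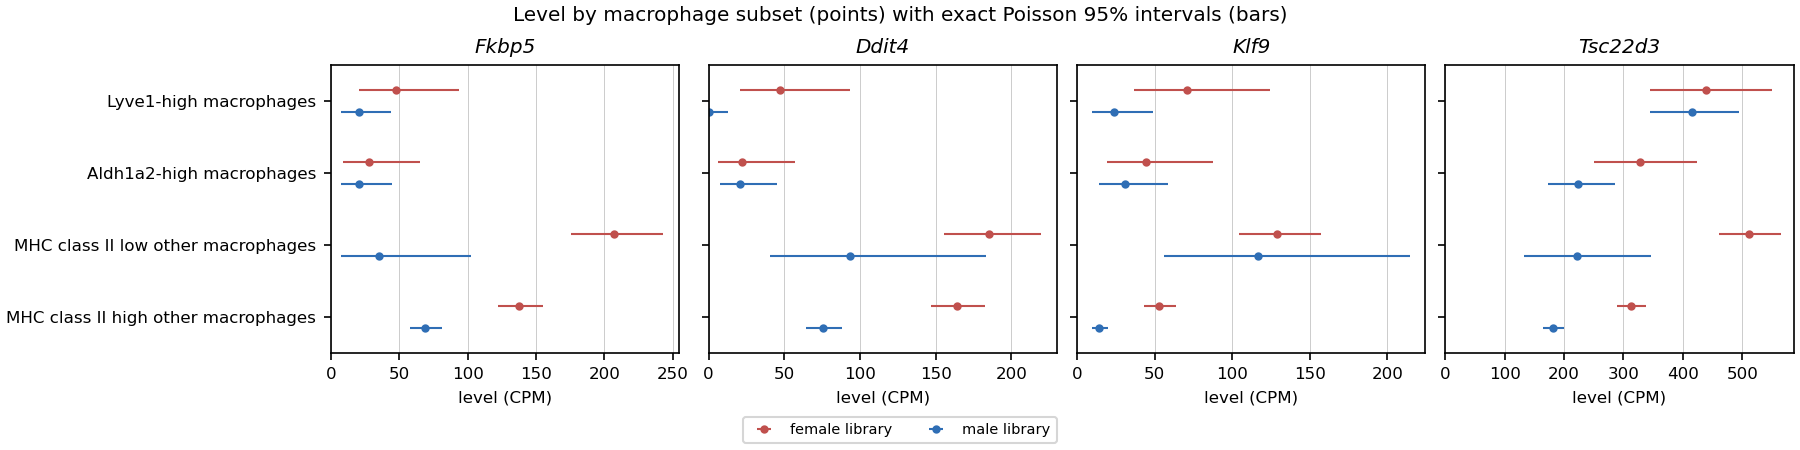
Level in CPM (horizontal axis, a scale of its own in each panel) of Fkbp5, Ddit4, Klf9 and Tsc22d3 in 4 macrophage subsets (rows), with 1 point for each library and exact Poisson 95% intervals as bars. Fkbp5 and Ddit4 are lower in the Lyve1-high and Aldh1a2-high subsets than in MHC class II high cells, and Klf9 is higher in MHC class II low cells (129 and 117 CPM) than in high cells (53.0 and 14.1 CPM).

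Across the 9 comparisons Tsc22d3 passed the test in 7 (5 higher, 2 lower) and Fkbp5 in 6 (3 higher, 3 lower). In the comparisons where both passed, they had the same direction once, in macrophages against T cells, and opposite directions in T cells against B cells, NK cells against T cells, monocytes against macrophages and Lyve1-high against other macrophages. Of these 4 opposite pairs, that of T cells and B cells kept both calls with DESeq2 and without the library block, and each of the others lost at least 1 call under one of them. Cebpd passed in 3 comparisons and was higher in each, but in macrophages against T cells it entered the test only through macrophages. Over the 20 class sums (10 classes in 2 libraries), the correlation of log2(CPM + 10) between Fkbp5 and Tsc22d3 was -0.15. It was 0.50 between Fkbp5 and Ddit4, 0.49 between Fkbp5 and Klf9, 0.69 between Tsc22d3 and Cebpd, 0.73 between Cebpd and Bcl6 and -0.53 between Sgk1 and Pim3. These values are a description, since sums of 1 library share its depth and its cells' handling.

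By the same measure, the genes with the pattern most like each member were found among 4937 genes. They were Bcl2l1 (0.78), Tmem273 (0.74) and Gpr65 (0.73) for Fkbp5, and Gpcpd1 (0.90), AB124611 (0.88) and Ypel3 (0.87) for Tsc22d3. Cebpd was most like Tmcc1 (0.97), Tnfaip2 (0.96) and Dck (0.96), and Per1 most like Pdlim7 (0.84), Cxcl2 (0.82) and Slpi (0.82). For Bcl6 they were Dazap2 (0.89), Nadk (0.88) and Aldh3b1 (0.88), and for Klf9 Tpi1 (0.84), Atp2a2 (0.83) and Cers5 (0.82). Sgk1 was most like Arf3 (0.88), Gnb2 (0.88) and Fam129a (0.85), and Errfi1 most like Cmklr1 (0.90), Rap2b (0.85) and Stx16 (0.84). For Ddit4 they were Sh2d1b1 (0.75), Diaph2 (0.72) and Esrra (0.71), and for Pim3 Lrmp (0.80), Tyk2 (0.77) and Nip7 (0.74).

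The receptor and its partners were measured in the same sums. Nr3c1, the glucocorticoid receptor gene, was found in every class, from 41.3 and 55.8 CPM in type 1 dendritic cells to 160 and 182 CPM in ILC2 and 131 and 219 CPM in neutrophils. It was higher in neutrophils than in monocytes (1.39 ± 0.39, adjusted p = 0.0164) and higher in Lyve1-high than in other macrophages (1.24 ± 0.25, adjusted p = 0.000245). It was lower in NK cells than in T cells (-0.65 ± 0.13, adjusted p = 4.85e-06). In the other 6 comparisons it did not pass, with differences from -0.20 to 0.50. Hsd11b1 encodes the enzyme that regenerates active glucocorticoid from its inert form. It was highest in NK cells (159 and 173 CPM), lower in T cells (67.9 and 67.1 CPM) and nearly absent from macrophages (2.56 and 1.43 CPM), a difference of -4.99 ± 0.28 between macrophages and T cells (adjusted p = 9.58e-69). Hsd11b1 was also higher in T cells than in B cells (2.94 ± 0.28), in NK cells than in T cells (1.11 ± 0.12) and in monocytes than in macrophages (2.51 ± 0.79), and lower in ILC2 than in T cells (-3.74 ± 0.94, from 1 UMI in ILC2).

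Of the 11 genes of receptor machinery, 2 were higher and 0 lower of 10 tested in T cells against B cells, 1 and 1 of 10 in NK cells against T cells, 0 and 1 of 10 in ILC2 against T cells and 1 and 3 of 10 in macrophages against T cells. In monocytes against macrophages 2 and 2 of 10 passed, in neutrophils against monocytes 2 and 2 of 9, and in Lyve1-high against other macrophages 2 and 1 of 9. None of 9 passed in type 2 dendritic cells against macrophages or between MHC class II low and high cells. The percentages of all genes that passed in each direction are those given above for each comparison, for example 16.9% and 15.3% for neutrophils against monocytes, 9.1% and 8.72% for Lyve1-high against other macrophages and 31.5% and 27.3% for macrophages against T cells.

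A list of 22 other genes known to be induced by glucocorticoids gave a further view. Macrophages against T cells had 12 higher and 4 lower of 20 tested (31.5% higher and 27.3% lower of all genes), with a median of 1.77 (0.00 over all genes). Mt1 (5.52 ± 0.15), Cd163 (5.32 ± 0.26) and Mt2 (4.26 ± 0.49), which encode metallothioneins and the haemoglobin scavenger receptor, were among the higher ones. Il7r, the interleukin receptor of T cells and ILC2, was lower (-5.59 ± 0.16). Neutrophils against monocytes had 9 higher and none lower of 14 (16.9% and 15.3% of all genes), with a median of 1.41 (-0.14 over all genes). Il1r2 (7.99 ± 0.66, over 1 UMI in monocytes, on which this size rests), a decoy receptor, Dusp1 (3.28 ± 0.19), a phosphatase of MAP kinases, and Zfp36 (2.94 ± 0.20), an RNA-binding protein, had the greatest differences. Summed over the list, neutrophils had 17749 and 17829 CPM and the other 9 classes between 870 and 3977 CPM. Dusp1, which is also an immediate early gene, made up 9538 and 8407 CPM of the neutrophil sums.

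The other comparisons are given with the percentages of all genes that were higher and lower. Between T cells and B cells 5 of the list were higher and 3 lower of 15 (15.7% and 16.3% of all genes, list median -0.13), with Il7r (6.18 ± 0.24) and Zbtb16 (5.27 ± 0.67, over 1 UMI in B cells) higher and Zfp36 (-2.08 ± 0.14) and Irs2 (-1.76 ± 0.49) lower in T cells. Between NK cells and T cells 4 were higher and 5 lower of 17 (10.5% and 12.2%, median -0.17), and Nfil3, a transcription factor needed for NK cells, was higher (2.20 ± 0.27) and Il7r lower (-2.37 ± 0.10). ILC2 had 3 higher and none lower of 13 (2.36% and 3.08%, median 0.72, with -0.14 over all genes). Monocytes against macrophages had 8 higher and 7 lower of 19 (17.1% and 15.8%, median -0.000901), with Cd163 (-6.48 ± 0.56, from 1 UMI in monocytes) and Mt1 (-3.85 ± 0.17) lower and Mt2 and Cdkn1c without a UMI in monocytes. Type 2 dendritic cells had 5 higher and 3 lower of 18 (9.93% and 9.6%, median 0.10), with Anxa1 (2.88 ± 0.23) and Zfp36 (1.77 ± 0.13) higher and Glul (-1.73 ± 0.21) lower.

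Lyve1-high macrophages, which had less Fkbp5 and Ddit4 than other macrophages, had 6 genes of this list higher and 2 lower of 18 (9.1% and 8.72% of all genes), with a median of 0.01 (-0.04 over all genes). Cd163 (4.37 ± 0.26, adjusted p = 2.89e-16), Glul (2.00 ± 0.22), Txnip (1.49 ± 0.18) and Anxa1 (1.41 ± 0.40) were the greatest of these differences. MHC class II low cells had 2 higher and none lower of 18 (0.48% and 0.366% of all genes, list median 0.27), namely Cd163 (3.10 ± 0.36, adjusted p = 1.23e-14) and Mt2 (2.06 ± 0.51, adjusted p = 0.00851). Cd163 was at 131 and 105 CPM in low and 11.8 and 15.5 CPM in high cells. Klf9, which was higher in low cells, did not pass between Lyve1-high and other macrophages (-0.05 ± 0.40, adjusted p = 0.959).

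Immediate early and heat shock genes, which digestion can raise, were counted in each comparison, with the percentages of all genes that were higher and lower in parentheses. Of 11 tested, 2 were higher and 6 lower in T cells against B cells (15.7% and 16.3%). In NK cells against T cells 3 and 2 of 10 passed (10.5% and 12.2%), and in ILC2 against T cells 4 and 0 of 10 (2.36% and 3.08%). Macrophages against T cells had 9 and 1 of 13 (31.5% and 27.3%) and monocytes against macrophages 8 and 2 of 13 (17.1% and 15.8%). Type 2 dendritic cells against macrophages had 8 and 0 of 13 (9.93% and 9.6%), Lyve1-high against other macrophages 6 and 0 of 13 (9.1% and 8.72%) and MHC class II low against high cells 1 and 1 of 13 (0.48% and 0.366%). The part of the digestion in the levels of the 10 genes was not tested.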

How the data were processed

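Live CD45+ cells were prepared with the Chromium 3′ kit, v3.1 chemistry. Per the labels, the authors counted reads with Cell Ranger 4.0.0 (build mm10) and removed noise barcodes with DropletUtils 1.4.3. The deposited values are raw UMI counts per gene and cell. Gene models of GENCODE M21 matched 32235 of 32285 gene IDs.

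Barcodes with under 200 genes (9 female, 13 male) or over 15% mitochondrial UMIs (140 and 175) were left out. The study's ceiling of 1.2% left 323 female and 354 male cells when read as a percentage of UMIs. The paper reports many more cells in each library after its filtering, so the ceiling on this scale was not the study's own filter. Which scale was meant could not be settled. It was kept as an alternative only, and results at it do not stand for the study's filter. Doublets were scored against simulated pairs, and the top 0.8% per 1000 barcodes was removed (126 and 56). A cell took the class with the largest share of its markers detected, if at least 2 markers were detected and no second class exceeded 0.75 of that share. This scoring rule was set after the data had been seen. It left 343 female and 189 male cells mixed and 122 and 81 with few markers. Leiden clusters made without the 10 genes (22 clusters) put 94.3% of classed cells in the same class. Each cluster was named by the class most of its classed cells carried. That class made up 52.5% to 100% of the classed cells of a cluster. It made up 58.0% in the cluster of type 2 dendritic cells and 73.7% in that of ILC2. Macrophage subsets needed 2 of their own markers.

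UMIs were summed per library and class. CPM values carry exact Poisson and shares exact binomial (Clopper-Pearson) 95% intervals. Shares were taken after drawing 1000 UMIs per cell, without shallower cells. Class pairs were tested with edgeR 4.0.16 in R 4.3.3 (quasi-likelihood, TMM, filterByExpr, library as a block, threshold 0.05). On simulated counts for T cells versus B cells (8922 genes), 72.2% of 2-fold and 95.7% of 4-fold changes were recovered with 5 false calls. For neutrophils versus monocytes (3966 genes) these were 22.1% and 78.9% with 5, and for MHC class II low versus high cells (8685 genes) 2.1% and 70.5% with 1. The simulated counts had 1 dispersion for all genes and the same gene means in both libraries. They therefore cannot show how many false calls the real sums hold. Alternatives were median-ratio size factors, DESeq2 1.42.0, no filter, no block, a fit over all classes, other ceilings, no doublet removal, stricter gates, clusters, adjustment over all comparisons and leaving out each library. The members and the gene lists were chosen with earlier results of these data known. All members are named, with the 3 most alike genes each (correlation over class sums, genes with 50 CPM or more in a class of each library) and, of each list, at most 4 passing genes per comparison, largest change first. Other tools were Python 3.11.15, numpy 2.4.6, scipy 1.17.1, pandas 2.3.3 and matplotlib 3.10.9.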

Additional observations from a re-analysis of the deposited data

Results flagged for a closer look

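Klf9 differed in direction between the libraries when monocytes were set against macrophages. The ratio of monocytes to macrophages was 0.678 (0.458 to 0.976) in the female library, with 48.4 CPM in monocytes (34 UMIs) and 71.4 CPM in macrophages (223 UMIs). In the male library the ratio was 2.29 (1.30 to 3.87), with 45.7 CPM (20 UMIs) and 20.0 CPM (56 UMIs). The monocyte levels were within each other's intervals, and the macrophage levels were apart. These intervals cover counting error only, so they cannot show a difference between the sexes. The female other macrophages held 173 MHC class II low cells of 692 and the male ones 34 of 666, and Klf9 was higher in low than in high cells in each library. Within the high cells Klf9 was at 53.0 CPM in the female and 14.1 CPM in the male library. The difference between the libraries was not tested, since each sex had 1 library.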

How the results depend on the processing

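The counts of the 10 genes that passed were recomputed under each alternative, and 80 of 107 such counts were within 1.5 times the reported count. Of 462 values of called differences, 370 were the same, 50 lost the call, 41 moved and 1 reversed, which was Tsc22d3 in NK cells against T cells at the 1.2% ceiling (0.11). The same means that direction and side of the threshold were kept. With a library left out no test was made, and it means a shift within the SE. Without the female library 12 of 35 values were the same and 23 moved, and without the male library 17 were the same and 18 moved. With median-ratio size factors all 35 calls stood. Without the library block 11 of 35 were lost and the counts fell to 2 for NK cells against T cells, 3 for monocytes against macrophages, 0 for ILC2 against T cells and 0 by edgeR for MHC class II low against high cells (2 with an unadjusted p under 0.05 in each of the last pair). With DESeq2 16 of 33 calls were lost and the counts were 4 for T cells against B cells, 5 for macrophages against T cells, 2 for neutrophils against monocytes, 1 for Lyve1-high against other macrophages and 0 for NK cells against T cells, ILC2 against T cells and MHC class II low against high cells (2, 1 and 1 with an unadjusted p under 0.05). At the 1.2% ceiling the counts were 1 for macrophages against T cells, 1 for neutrophils against monocytes and 0 by edgeR for T cells against B cells, NK cells against T cells, ILC2 against T cells and MHC class II low against high cells (0, 0, 1 and 0 with an unadjusted p under 0.05). Lyve1-high macrophages could not be compared there, as a class was empty. In the fit over all classes NK cells against T cells had 2 calls and type 2 dendritic cells against macrophages 2. The latter had 3 without a filter, at the 5% ceiling, with 3 markers and with clusters, and 2 when adjusted over all comparisons. ILC2 against T cells had 2 calls with clusters and, by edgeR, 0 with 3 markers and 0 with a stricter limit on the second class, the one alternative chosen after seeing the data (2 and 1 with an unadjusted p under 0.05). Causes were not tested. Both classes of a comparison came from the same libraries, so the reported fit, with the library as a block, is the paired analysis. Of 380 CPM values, 373 stayed within the reported interval at the 5% ceiling and 380 without doublet removal, and 133 of 370 at the 1.2% ceiling. Depth limits the genes with few UMIs, above all Per1, Errfi1 and Pim3, and the small classes ILC2, neutrophils and type 1 dendritic cells.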
